A study of Mus musculus with 7 samples.

Results

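The Reg genes encode small secreted C-type lectins of the gut and the exocrine pancreas. The 7 members listed for the mouse were Reg1, Reg2, Reg3a, Reg3b, Reg3d, Reg3g and Reg4. All 7 were found among the 19937 genes with a probe set of their own, and each was read by 1 probe set. They were chosen by name, and their levels were compared between 3 reconSCID and 4 reconRAG1KO samples. ReconSCID samples came from NOD mice with the SCID mutation, which the labels give as a mutation of DNA-PK, and reconRAG1KO samples from NOD mice null for RAG1. In both groups pups of 2 to 4 days had been irradiated with 200 rad and injected with bone marrow 6 h later. The sort, 6 to 8 weeks after the transfer, took medullary epithelial cells of the thymus that were high in MHC class II. The labels give neither the number of thymi behind a sample nor the donor of the marrow, and the control mice are mutant, irradiated and transplanted as well.

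Reg3g and Reg3b are bactericidal lectins that the intestinal epithelium and Paneth cells secrete. Their genes are induced there by microbes through Toll-like receptors and through IL-22, which acts by way of the transcription factor STAT3. Reg1 and Reg2 were described as pancreatic stone proteins of acinar cells, and Reg4 is made by intestinal secretory cells. In the thymus, medullary epithelial cells transcribe many such genes of peripheral tissues, in part through the regulator Aire, and so display their products to developing T cells.

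Reg3g, Reg3b and Reg1 were the members whose levels varied most between arrays, and the group means of all 3 were lower in reconSCID. No Reg gene passed the adjusted threshold. The first bases around their gene starts, and those of Reg3a as a member that hardly varied, are shown here. They are taken from RefSeq (GRCm38.p6, the C57BL/6J reference, not NOD) and run from 250 bases before to 50 bases after the gene start, 5′ to 3′ on the gene's own strand. Reg3g lies at chr6:78468825-78469124 on the minus strand, Reg3b at chr6:78370635-78370934, Reg1 at chr6:78425733-78426032 and Reg3a at chr6:78380459-78380758, these 3 on the plus strand. Capitals mark the letters TATAAA upstream of the start and the longest run that Reg3g and Reg3b share.
Reg3g: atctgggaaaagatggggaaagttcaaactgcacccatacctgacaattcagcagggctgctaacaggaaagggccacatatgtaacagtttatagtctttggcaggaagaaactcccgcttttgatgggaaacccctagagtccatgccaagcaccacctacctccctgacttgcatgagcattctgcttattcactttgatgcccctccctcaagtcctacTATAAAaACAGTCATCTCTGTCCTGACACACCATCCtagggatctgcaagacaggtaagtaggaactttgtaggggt
Reg3b: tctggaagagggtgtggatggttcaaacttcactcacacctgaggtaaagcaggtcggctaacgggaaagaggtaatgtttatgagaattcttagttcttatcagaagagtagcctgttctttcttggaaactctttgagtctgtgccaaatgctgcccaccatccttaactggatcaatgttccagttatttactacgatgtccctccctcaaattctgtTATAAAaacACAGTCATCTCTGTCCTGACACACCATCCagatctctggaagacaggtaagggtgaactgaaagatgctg
Reg1: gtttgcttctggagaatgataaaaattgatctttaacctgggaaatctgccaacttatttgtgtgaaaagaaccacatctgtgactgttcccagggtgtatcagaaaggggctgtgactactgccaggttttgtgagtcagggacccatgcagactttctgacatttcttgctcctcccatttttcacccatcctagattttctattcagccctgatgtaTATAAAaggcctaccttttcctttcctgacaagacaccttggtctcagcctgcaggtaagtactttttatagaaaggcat
Reg3a: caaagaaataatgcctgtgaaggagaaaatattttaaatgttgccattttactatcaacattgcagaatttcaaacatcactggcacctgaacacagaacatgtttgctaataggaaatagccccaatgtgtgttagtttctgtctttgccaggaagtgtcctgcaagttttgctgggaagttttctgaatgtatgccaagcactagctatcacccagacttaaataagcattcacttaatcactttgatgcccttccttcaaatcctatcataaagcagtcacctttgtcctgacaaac

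The promoter windows of Reg3g and Reg3b were more alike than those of any other pair in the family. They were identical at 214 of 310 aligned columns (69.0%), whereas the other 20 pairs had 49.1% to 58.5% identity. The run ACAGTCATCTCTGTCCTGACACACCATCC of 29 bases begins 20 bases before the gene start in both windows and was held by 2 of 32851 promoter windows, those of Reg3g and Reg3b. The longest run in any other pair had 14 bases. On either strand, TATAAA was found in 4 of the 7 Reg windows (Reg1, Reg2, Reg3b and Reg3g) and in 13.6% of all windows. In these 4 it began 27 to 30 bases before the start on the gene's strand. The E-box letters CACCTG, searched on both strands, were found in 5 of the 7 (Reg2, Reg3a, Reg3b, Reg3d and Reg4) and in 20.2% of all windows. The STAT consensus TTCNNNGAA was found in Reg3b and Reg3d and in 8.30% of all windows. None of these motifs overlapped another in the Reg windows. These are matches of letters, and no binding was measured.

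The 7 arrays were deposited as intensities on a linear scale with medians of 88.6 to 96.3. ReconSCID replicate 2 and reconRAG1KO replicate 4 stood apart from the other 5 arrays, with correlations of 0.922 to 0.947 across all probe sets between these sets, against 0.976 to 0.990 within the set of 5. The labels name no batch, so values are given also from a fit that takes the array set as a block, called the blocked fit here, and within each set. The sort carried the marks of medullary epithelium. Aire had log2 intensities of 10.70, 11.46 and 9.73 in reconSCID replicates 1 to 3 and of 10.90, 10.89, 11.09 and 11.93 in reconRAG1KO replicates 1 to 4, all far above the array medians of 6.47 to 6.59 on the log2 scale. Prkdc, the gene of the DNA-PK catalytic subunit, averaged 7.40 ± 0.23 (SD, n = 3) in reconSCID and 7.26 ± 0.07 (SD, n = 4) in reconRAG1KO, a log2 difference of 0.14 with a 95% interval from -0.16 to 0.44. The mutation changes the coding sequence, so a transcript level is no check of that label.

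Reg3g was the member with the largest difference. Its intensity was 294, 119 and 164 in reconSCID replicates 1 to 3, against 452, 327, 525 and 272 in reconRAG1KO replicates 1 to 4. Only reconSCID replicate 1 reached into the range of the control arrays, just above reconRAG1KO replicate 4, and the other 2 reconSCID arrays lay below all 4 controls. On the log2 scale Reg3g averaged 7.48 ± 0.66 (SD, n = 3) in reconSCID and 8.58 ± 0.43 (SD, n = 4) in reconRAG1KO. The log2 difference was -1.09 ± 0.36 (SE), with a 95% interval from -1.95 to -0.24, or 0.469 times the control level with an interval of 0.260 to 0.849. By limma its unadjusted p was 0.0197 and its adjusted p over 34760 probe sets was 1. Of all probe sets 0 (0%) passed the adjusted threshold of 0.05, while 1159 (3.33%) had an unadjusted p under 0.05 in either direction. On the lower side these were 394 (1.13%), and 1 of the 7 Reg genes was among them. None of the 7 had groups free of overlap over all 7 arrays with reconSCID lower, where 1.43% of all probe sets did. Among the 19937 genes, 18 had a lower difference than Reg3g.

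Reg3g was lower in reconSCID within each array set. In the set of 5, its 294 and 164 in reconSCID replicates 1 and 3 lay below all of 452, 327 and 525 in reconRAG1KO replicates 1 to 3. In the set of 2, reconSCID replicate 2 had 119 and reconRAG1KO replicate 4 had 272. The log2 differences within these sets were -0.96 and -1.20. The blocked fit put it at -1.03 (95% interval -1.65 to -0.40), with an unadjusted limma p of 0.00712 and an adjusted p of 0.272. In that fit 0 probe sets passed after adjustment (0%), and 5.77% of all probe sets were lower at an unadjusted p under 0.05, as were 2 of the 7 Reg genes, Reg3g and Reg3b. Groups that did not overlap in either set, with reconSCID lower, were found for the same 2 Reg genes and for 8.55% of all probe sets. The difference of Reg3g was -0.64 when arrays were weighted by their scatter, a fit that gave reconSCID replicates 1, 2 and 3 weights of 4.79, 0.12 and 0.80.

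**Figure D1:**
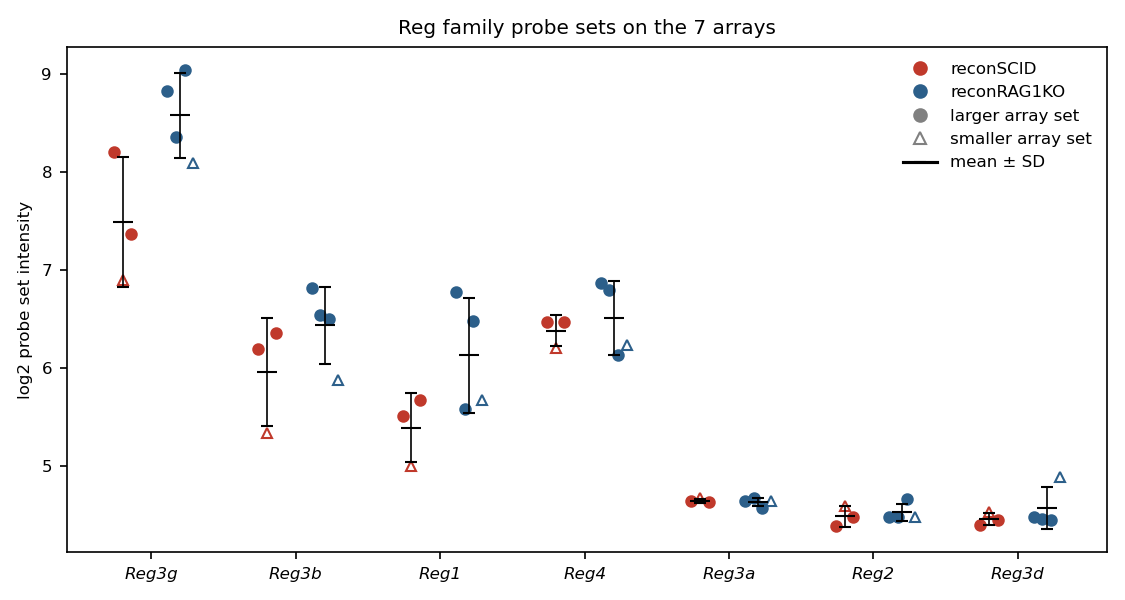
Log2 intensity of the 7 Reg probe sets on each array, reconSCID (red, 3 arrays) left of reconRAG1KO (blue, 4 arrays), with bars for the mean ± SD and open triangles for reconSCID replicate 2 and reconRAG1KO replicate 4. Reg3g lies highest and spans 6.89 to 9.04, while Reg3a, Reg2 and Reg3d lie between 4.38 and 4.89. Heights of different probe sets are not comparable as amounts of transcript.

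Reg3b, the close relative of Reg3g that is also known as pancreatitis-associated protein, was lower by a smaller amount. Its intensity was 72.9, 40.3 and 82.0 in reconSCID replicates 1 to 3, against 112, 93.3, 90.5 and 58.9 in reconRAG1KO replicates 1 to 4. Over all 7 arrays the groups overlapped, because reconRAG1KO replicate 4 lay below 2 reconSCID arrays. The lowest array of each group was the one from the set of 2, and Reg3b was lower there than in the set of 5 by a log2 difference of -0.83, larger than its difference between the groups. The mean log2 intensity was 5.96 ± 0.55 (SD, n = 3) in reconSCID and 6.43 ± 0.39 (SD, n = 4) in reconRAG1KO, a difference of -0.47 with a 95% interval from -1.22 to 0.27. The blocked fit put Reg3b at -0.40 (95% interval -0.66 to -0.15), with an unadjusted limma p of 0.0087 and an adjusted p of 0.281. Within the sets of 5 and 2 it was -0.35 and -0.55. Without reconSCID replicate 2 the unblocked difference was -0.16. The intervals of the blocked difference excluded 0 whichever sample was left out, for Reg3b and Reg3g alike, although leaving out either array of the set of 2 comes to the same fit on the set of 5.

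Reg1 had a difference between those of Reg3g and Reg3b, with a wider scatter among the controls. Its intensity was 45.5, 32.0 and 50.8 in reconSCID replicates 1 to 3, against 109, 48.0, 88.9 and 51.0 in reconRAG1KO replicates 1 to 4. ReconRAG1KO replicates 2 and 4 were close to the reconSCID arrays, and replicates 1 and 3 stood above them. The means were 5.39 ± 0.35 (SD, n = 3) in reconSCID and 6.13 ± 0.59 (SD, n = 4) in reconRAG1KO on the log2 scale. The difference of Reg1 was -0.74 with a 95% interval from -1.54 to 0.07 (limma unadjusted p = 0.0686), and in the blocked fit -0.69 (-1.38 to 0.01). It measured -0.69 within the set of 5 and -0.67 within the set of 2.

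**Figure D2:**
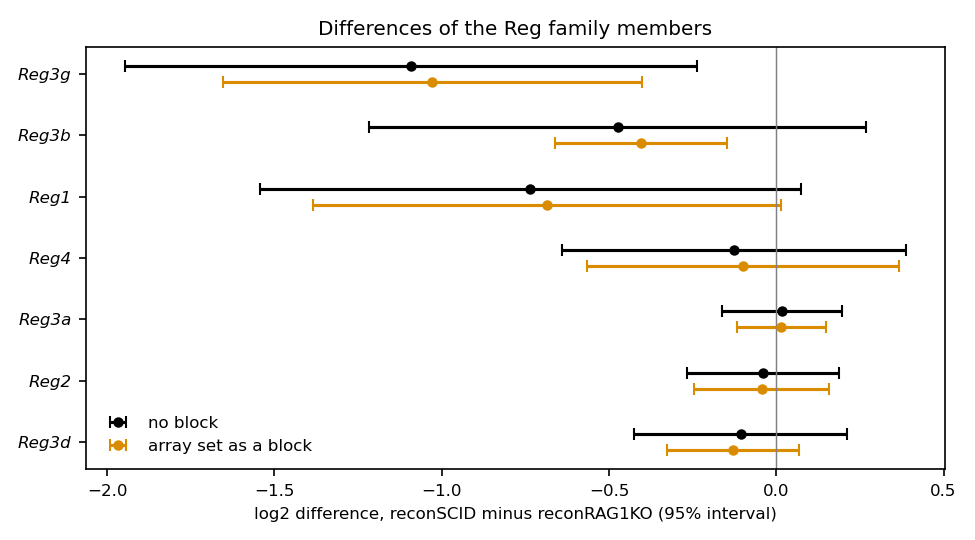
Log2 difference of each Reg gene, reconSCID minus reconRAG1KO, with 95% intervals from limma without a block (black) and from the blocked fit (orange). The interval of Reg3g lies below 0 in both fits, that of Reg3b in the blocked fit only, and those of the other 5 genes include 0 in both.

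Reg4, which lies on another chromosome than the rest of the family, did not separate the groups. Its intensity was 88.7, 73.5 and 88.7 in reconSCID replicates 1 to 3, against 117, 111, 70.2 and 75 in reconRAG1KO replicates 1 to 4. The reconSCID arrays fell inside the range of the controls. The log2 difference was -0.13, with an interval from -0.64 to 0.39. Single arrays decided its size, since it was -0.0059 without reconRAG1KO replicate 1, -0.03 without reconRAG1KO replicate 2, -0.04 without reconSCID replicate 2, -0.22 without reconRAG1KO replicate 4 and -0.25 without reconRAG1KO replicate 3. In the blocked fit without reconRAG1KO replicate 3 the interval, -0.49 to -0.0068, excluded 0.

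Reg3a, Reg2 and Reg3d, the islet neogenesis-associated member, were dim on every array. Their intensities spanned 23.8 to 25.5, 20.9 to 25.3 and 21.1 to 29.7, below the 25th percentile of each array. Reg3a differed by 0.02 (95% interval from -0.16 to 0.20), Reg2 by -0.04 (-0.27 to 0.19) and Reg3d by -0.11 (-0.42 to 0.21) on the log2 scale. Reg2 had 4 and Reg3a had 5 distinct values among the 7 arrays, since some arrays held exactly the same deposited number, as did 46.2% of all probe sets, which can make their spread look too small. The table has no detection call, so a transcript at such a level cannot be told from background, and a difference would be hard to see. Reg3g was the only member above the median of every array, at the 57th to 89th percentile of the probe sets. Probe sequences were not used here, and signal shared between these related transcripts was not tested.

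Reg3g had a lower difference than each other member, Aire and the general epithelial mean within both array sets, but none of these 8 comparisons passed after adjustment. Reg3g was taken for these comparisons because its levels varied most among the members on these arrays. It already had the largest difference in the family, so a lower value than the other members over all arrays was built in. The values within the array sets, also those against Aire and the epithelial mean, come from the same arrays and are not separate evidence. The permutation p-values below do not allow for this choice. On the same arrays the difference of Reg3g minus that of Reg3b was -0.62, and minus that of Reg1 it was -0.36, on the log2 scale, with two-sided exact permutation p-values of 0.143 and 0.286. Minus the differences of Reg2, Reg3a, Reg3d and Reg4 it was -1.05, -1.11, -0.98 and -0.96, with exact permutation p-values of 0.0571 to 0.114. Minus that of Aire it was -0.52 (exact p = 0.514), and minus that of the mean of 16 general epithelial genes it was -0.65 (exact p = 0.429). The lowest Benjamini-Hochberg value over these 8 comparisons was 0.229, and with 35 ways to assign the labels no p can fall under 0.0286. That test leaves the array sets aside, although in the set of 2 the level of Reg3g was lower and those of Aire and the epithelial mean were higher, which widens the spread of these values. Within the sets of 5 and 2, Reg3g minus Aire was -0.21 and -0.73, and Reg3g minus the epithelial mean was -0.324 and -0.996. With labels assigned within the array sets, a test added after the data had been seen, the blocked values were -0.36 against Aire (exact permutation p = 0.2), -0.52 against the epithelial mean (exact p = 0.15), -0.62 against Reg3b (exact p = 0.25) and -0.34 against Reg1 (exact p = 0.35). Against Reg2 the blocked value was -0.98 (exact p = 0.05, the smallest that 20 assignments can give), and the lowest Benjamini-Hochberg value was 0.267.

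**Figure D3:**
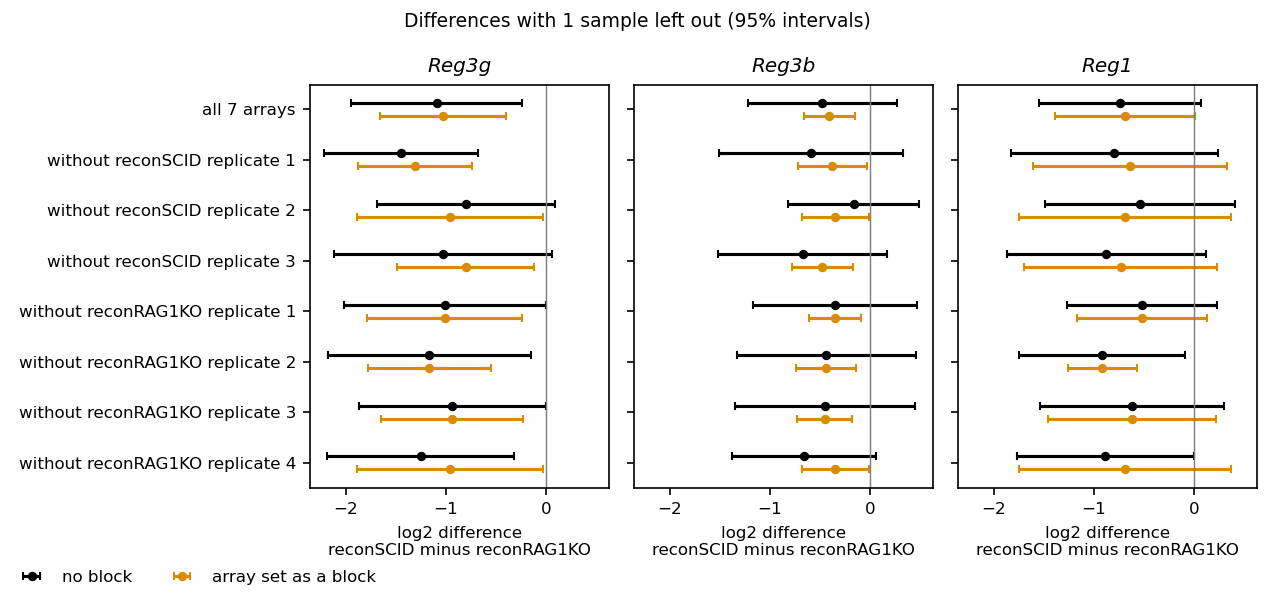
Log2 differences of Reg3g, Reg3b and Reg1, reconSCID minus reconRAG1KO, over all 7 arrays and with each sample left out in turn, with 95% intervals without a block (black) and from the blocked fit (orange). Values stay below 0 throughout, from -1.45 to -0.80 for Reg3g without a block, and the blocked intervals of Reg3g and Reg3b exclude 0 in each case.

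The 6 Reg genes of chromosome 6 stand side by side, and the ones that differed most were at the ends of the row. Reg3d, Reg3a and Reg2 in the middle were dim on every array, where a difference would be hard to see. The row therefore does not show whether these genes differed less. The order in RefSeq is Reg3b, Reg3d, Reg3a, Reg2, Reg1, the pseudogene Gm52853 and Reg3g. In the blocked fit Reg3b at the first end differed by -0.40, Reg3d, Reg3a and Reg2 by -0.13, 0.01 and -0.04, and Reg1 and Reg3g at the other end by -0.69 and -1.03. Of the 5 measured protein-coding genes on each side, Lrrtm1, a synaptic adhesion gene next to Reg3b, had the lowest blocked difference, -0.37 with an interval from -0.62 to -0.12. The intervals of the other 9 included 0, with Ctnna2 at -0.25 (-0.49 to 0.00085) and Lrrtm4, the first gene beyond Reg3g, at 0.08. None of these neighbours passed the adjusted threshold.

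**Figure D4:**
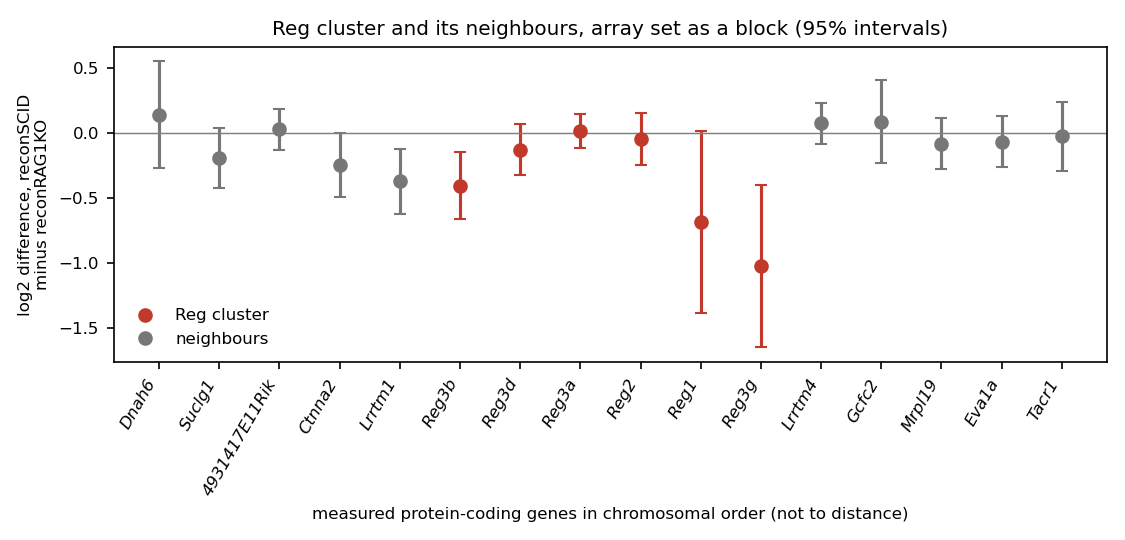
Log2 difference, reconSCID minus reconRAG1KO, in the blocked fit, for the 6 Reg genes of chromosome 6 (red) and 5 measured protein-coding genes on each side (grey), in chromosomal order with even spacing and 95% intervals. Reg1 and Reg3g stand lowest at -0.69 and -1.03, and the genes beyond Reg3g lie between -0.08 and 0.09. Reg3d, Reg3a and Reg2 were dim on every array, where a difference would be hard to see.

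Among 11549 other genes at or above the median level, the profiles most like that of Reg3g over the 7 arrays belonged to Hamp, Liph, Cldn13, Vmo1, Tbc1d7 and Thrsp. Likeness was the root mean square difference between log2 profiles centred on their means, and these 6 lay 0.26 to 0.28 from Reg3g. Hamp encodes the iron hormone hepcidin, Liph a lipase, Cldn13 a claudin and Thrsp a lipogenic protein of the liver. Hamp averaged 7.02 ± 0.63 (SD, n = 3) in reconSCID and 8.00 ± 0.19 (SD, n = 4) in reconRAG1KO, and Cldn13 averaged 7.79 ± 0.49 and 8.81 ± 0.18. The choice of these genes by likeness fixes that they are lower too. Within the family, Reg1 lay 0.39 and Reg3b 0.46 from Reg3g, and 26 and 84 of those genes were closer. Reg2, Reg3a, Reg3d and Reg4 lay 0.68 to 0.74 away.

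Other antimicrobial genes of mucosal surfaces were mostly lower as well, though none passed after adjustment. Of 22 measured genes, 15 were lower and 7 higher in reconSCID, with a median log2 difference of -0.32, where 52.4% of all genes were lower with a median of -0.01. In the blocked fit 10 were lower and 1 higher at an unadjusted p under 0.05. Of all 19937 genes 1345 were lower and 1064 higher at that threshold, and of all probe sets 5.77% and 6.53%. The general epithelial list, described below, held 11 such lower genes of 16, so the share was not particular to antimicrobial genes. Zg16, a lectin of intestinal mucus, averaged 4.81 in reconSCID and 5.21 in reconRAG1KO, a difference of -0.40. Both means lay near or below the 25th percentile of the arrays, so this signal is hard to tell from background. Lypd8, which keeps flagellated bacteria off the colonic epithelium, differed by -0.61, the peptidoglycan receptor gene Pglyrp1 by -0.60 and the nitric oxide synthase gene Nos2 by -0.74. Within the sets of 5 and 2, Lypd8 differed by -0.87 and 0, whereas Pglyrp1 and Nos2 were lower in both. Pglyrp1 is also a neutrophil granule gene. Ang4, a Paneth cell ribonuclease, differed by -0.55, but Lyz1 and Pla2g2a of the same list by only -0.16 and -0.04. The defensin gene Defb1 (0.04) and Retnlb (0.08), a goblet cell product, had values near 0. Their group means were only 4.57 to 5.01, where a difference would be hard to see. The largest values on the higher side were those of Defa24 (0.38, a dim probe set), Lyz2 (0.27) and Slpi (0.23).

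A list of genes of IL-22, IL-6 and STAT3 signalling and of related receptors was not lower as a whole. The list is broader than the route that induces Reg genes in the gut, since it also holds an antagonist and a proposed Reg receptor. Activity of that route was not tested. Of 18 measured genes 7 were lower and 11 higher, with a median of 0.07, and 0 passed after adjustment. At an unadjusted p under 0.05, 0 passed without the block, and 1 lower and 4 higher did with it. Of all 19937 genes 1345 were lower and 1064 higher in that way, and of all probe sets 5.77% and 6.53%. Stat3 averaged 10.83 in reconSCID and 11.12 in reconRAG1KO, a log2 difference of -0.28 without a block and -0.31 with it (interval from -0.49 to -0.13). The IL-22 receptor gene Il22ra1 differed by -0.03, its soluble antagonist Il22ra2 by 0.25, the bacterial sensor Tlr4 by 0.50 and the adaptor Myd88 by 0.23. Tlr4 had a 95% interval from -0.17 to 1.18, with 0.79 within the set of 5 and -0.24 within the set of 2. Il22ra2 was at a low level, averaging 4.80 in reconSCID and 4.55 in reconRAG1KO. Extl3, which encodes a proposed Reg receptor, differed by 0.31.

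Genes typical of the gut epithelium and of acinar cells gave a mixed picture beside the Reg genes. Of 16 gut-type genes 13 were lower, with a median of -0.19 and 0 passing after adjustment, where 52.4% of all genes were lower. Mep1a differed by -1.08, the acute-phase gene Saa1 by -1.32, Apoa4 by -0.57 and the chemokine gene Ccl20 by -0.52. The intestinal transcription factor genes Cdx2 and Hnf4a differed by -0.0036 and -0.03. Of 16 exocrine pancreas genes 9 were lower and 7 higher, the latter by at most 0.24. The median of this list was -0.02, with 0 passing after adjustment. The lowest unadjusted p among them belonged to Zg16, Pnliprp1 (-0.25), Spink1 (-0.42) and Gp2 (-0.83), the last of which also marks microfold cells. Zg16 and Pnliprp1 had group means of only 4.46 to 5.21 on the log2 scale, a level hard to tell from background. In the blocked fit 6 gut-type and 5 exocrine genes were lower at an unadjusted p under 0.05, and 0 of either list were higher. Of all probe sets 5.77% were lower and 6.53% higher in that way. The lists overlap, since Gp2 is in both and Zg16 is also in the antimicrobial list.

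**Figure D5:**
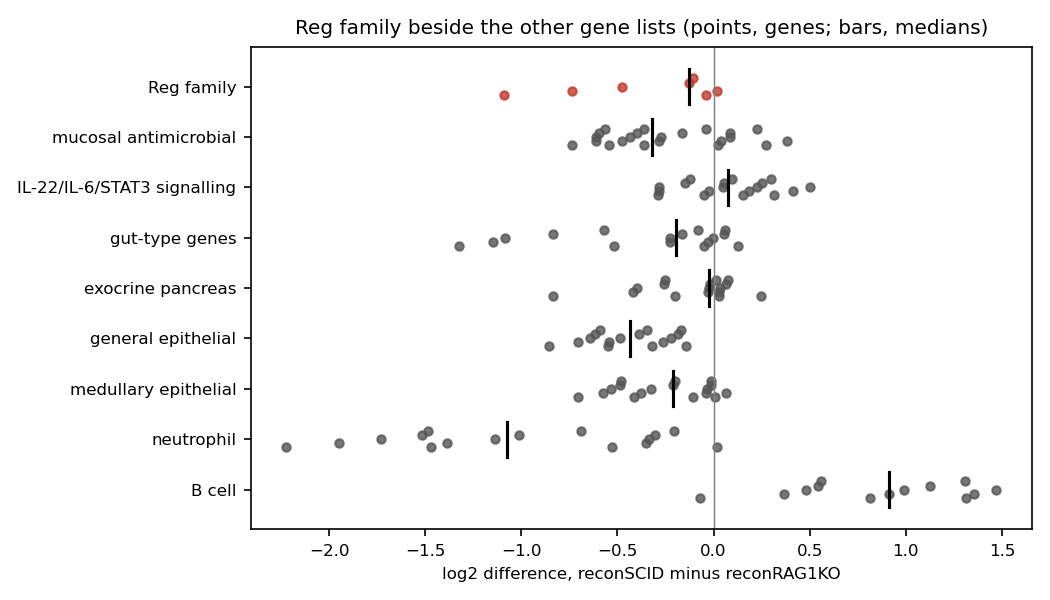
Log2 difference, reconSCID minus reconRAG1KO, of each gene (points) in the Reg family (red) and 8 other lists (grey), with black bars at the medians. Medians run from -1.08 for neutrophil genes to 0.91 for B cell genes, and the Reg family holds both genes near 0 and Reg3g at -1.09.

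Markers of the sorted cells and of other cells differed between the groups as well, with 0 passing after adjustment. All 16 general epithelial genes were lower in reconSCID, with a median of -0.44, and their summed intensity was 5659 to 14033 in reconSCID and 9624 to 16979 in reconRAG1KO. The medullary list was lower in 15 of 17 cases, and in 13 of 17 in the blocked fit. Its median was -0.21, and its summed intensity was 38547 to 42599 in reconSCID and 42688 to 44952 in reconRAG1KO. Neutrophil genes were lower in 15 of 16 cases, with a median of -1.08, and summed to 1581 to 2382 in reconSCID and 1858 to 11007 in reconRAG1KO. Lcn2, which neutrophils and inflamed epithelium both make, differed by -1.52, Ly6g by -1.47, Chil3 by -1.14 and Stfa3 by -0.53. B cell genes were higher in 12 of 13 cases, with a median of 0.91, and summed to 2364 to 5797 in reconSCID and 2164 to 2370 in reconRAG1KO. In the blocked fit 11 general epithelial, 5 medullary and 5 neutrophil genes were lower at an unadjusted p under 0.05, and 9 B cell genes were higher. None of these lists had such a gene in the other direction. Of all 19937 genes, 52.4% were lower without the block. In the blocked fit 1345 of all genes were lower and 1064 higher at that threshold, and of all probe sets 5.77% and 6.53%. The part of these cells in the Reg differences was not tested. In sorted pools, fewer cells that transcribe Reg3g and less Reg3g transcript per cell cannot be told apart.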

How the data were processed

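Per the labels' protocols, biotinylated cRNA was prepared from 6 µg of total RNA after the Affymetrix standard. The authors deposited 1 intensity per probe set and array on a linear scale. The values had been summarised and brought to nearly equal array medians, by a method not given in the sources used here. None of the 34760 probe sets had a missing value or one below 1, and log2 was taken without a pseudocount. In the platform annotation 21640 probe sets had 1 gene symbol, 1321 had several and 11799 were unnamed. Gene IDs of 21553 were found in the RefSeq table of GRCm38.p6, and 0 symbols changed. For each gene the probe set with the highest mean was used.

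R 4.3.3 and limma 3.58.1 (lmFit, eBayes) were used to fit all probe sets, with two-sided tests, Benjamini-Hochberg adjustment over 34760 and a threshold of 0.05, as reconSCID minus reconRAG1KO. The procedure was run on simulated data with independent normal scatter, equal for all arrays and without tied values. That run does not show how the fits behave with tied values or with arrays of unequal scatter. Array sets came from complete-linkage clustering of 1 minus Pearson's r. Samples are biological replicates per the titles, and p-values measure only the spread between them. The labels do not say that shared replicate numbers pair samples, and they were not taken as pairs. Deviations from the group means correlated at 0.47, -0.51 and 0.31 for numbers 1, 2 and 3, but only reconSCID replicate 2 of these 6 arrays lies in the set of 2, so these values say little about pairing. The number of arrays limits the precision.

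Members, gene lists and the alternatives, including the array set block, were chosen with earlier results of these data known. Named genes are the 7 members, Aire, Prkdc, the 6 genes most like the member with the largest SD, the 5 measured neighbours on each side of the cluster and up to 4 genes per list by unadjusted p. Ang4, Lyz1, Lyz2, Pla2g2a, Defa24, Slpi, Defb1, Retnlb, Il22ra1, Extl3, Cdx2 and Hnf4a were named after their values were seen. Promoter windows were aligned globally with Biopython 1.88 (match 1, mismatch -1, gap opening -2, gap extension -0.5).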

Additional observations from a re-analysis of the deposited data

Results flagged for a closer look

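A reconRAG1KO array stood far from the other 3 for 2 of the 7 Reg probe sets, both of them dim. For Reg2, replicate 3 had an intensity of 25.3 while the other 3 held the same deposited number, 22.3, so the gap took the whole range (a ratio of 1, past Dixon's critical value). For Reg3d, replicate 4 had 29.7 while the others lay between 21.8 and 22.3, a gap of 0.927 of the range. Chance alone gives about 1 such group in 20. Groups of 3, such as reconSCID, were not examined in this way. Without reconRAG1KO replicate 4 the log2 difference of Reg3d was 0.00073, against -0.11 with it.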

How the results depend on the processing

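Reg3g, Reg3b, Reg1 and Reg4 were lower in reconSCID under every alternative that gave them a value, and no Reg gene passed the adjusted threshold in any. Array weights called 57 probe sets where the unweighted fit called 0. At an unadjusted p under 0.05 the fit called 1159 probe sets and 1 Reg gene. The median difference of the family was -0.13, and it was -1.09 with the filter on low values, which kept only Reg3g. Dim members changed sign. Reg3a was -0.045 after quantile normalization, Reg3d was 0.00073 with the replicate block, and without single samples the differences ran from -0.094 to 0.011 for Reg2, from -0.0033 to 0.031 for Reg3a and from -0.15 to 0.00073 for Reg3d. With the array set block, combined with left-out samples after the data had been seen, Reg2 was 0.0046 without reconRAG1KO replicate 3 and 0.0090 without reconSCID replicate 1, and Reg3a was -0.0033 without reconRAG1KO replicate 3. Without single samples Reg3g ran from -1.45 to -0.80, and its interval included 0 without reconSCID replicate 2 or 3. With the replicate block Reg3g was -1.25 and 0 probe sets were called; 1 of 3 reconSCID samples was most like the control of its own number. Pseudocount, trend, median centring and the mean of probe sets moved no Reg call. With 7 arrays, dim probe sets allow no firmer statement.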
